A study of Drosophila melanogaster with 2 samples.

Results

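Noncoding RNAs were followed in the heads of Drosophila melanogaster, in the polyadenylated RNA of 1 control and 1 ethanol-exposed pool of flies. A noncoding transcript was any row of the deposited tables whose RefSeq accession starts with NR_, the prefix for RNAs that are not translated, with at least 1 read in either library. This rule gave 128 rows, from 118 genes, among 15090 rows with a read, and the other 14962 rows were protein-coding (NM_ accessions). Of the 128 rows, 110 had reads in the control library and 108 in the ethanol library. The current RefSeq fly annotation (Release 6) gave a gene name to 101 rows, and 27 accessions had no entry in it and are called by their accession.

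The flies of both groups were wild-type Canton-S adult females, 3 to 5 days old, reared on cornmeal medium. Ethanol-exposed flies were held in ethanol-saturated air for 15 min, by which time they were sedated, and recovered in air without ethanol for 30 min. Control flies stayed in air without ethanol for all 45 min. A group is 1 library made from about 180 pooled flies, which leaves every difference without a replicate check, and p-values are therefore not given. The labels state no transgene, mutation or other treatment, and the comparison asks which RNAs differ in level shortly after a sedating exposure.

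The tables assign 11763222 reads to transcripts for the control and 11027646 for the ethanol library, and the RNA integrity numbers (a scale of how intact the RNA is) were 6.80 and 6.40. Head tissue was plain in both, with 546212 and 452455 reads for ninaE, the main rhodopsin of the eye. The glial marker repo had 702 and 741 reads. Of 4 measured glial markers, 2 were higher and 1 lower with intervals that excluded a ratio of 1, and moody had 0 reads in both libraries. The neuron markers summed to 734 and 632 reads, with 0 for para. The gut markers summed to 878 and 737 reads, whereas the ovary markers summed to 10 and 3. Of the antenna markers, 2 of 3 measured, a10 and Obp19a, were over 2-fold lower after ethanol, beside 0.741% of all measured genes called lower by the rule given below. The other measured one, Obp83a, had 499 and 251 reads, lower by less than 2-fold. The part of a differing share of antennae in the results below was not tested. In RNA from whole heads, fewer cells of a type and less RNA per cell cannot be told apart.

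Several kinds of noncoding RNA are covered by the NR_ prefix. Small nucleolar RNAs (snoRNAs) guide the chemical modification of ribosomal and spliceosomal RNA, the box C/D kind directing ribose methylation and the H/ACA kind pseudouridylation. Most fly snoRNAs lie in introns of other genes and are trimmed out of the spliced intron. Most hosts encode proteins, often of the ribosome, but the Uhg genes (U snoRNA host genes) carry snoRNAs in the introns of an RNA with no known protein product, whose spliced exons can be caught by their poly(A) tail. In mammals, spliced RNAs of this kind are known targets of nonsense-mediated decay. Among the long noncoding RNAs, Hsromega is induced by heat and organises nuclear omega speckles, and roX1 and roX2 guide the dosage compensation complex to the male X chromosome.

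Noncoding rows took 26755 control reads, which is 0.227% of the library (95% Clopper-Pearson interval 0.225 to 0.230%), and 25841 ethanol reads, 0.234% (0.231 to 0.237%). A few rows held most of them. The 5 rows with the most reads made up 89.1% of the noncoding reads of the control library and 87.0% of those of the ethanol library, and lncRNA:CR42862 alone made up 64.7% and 62.4%. At the other end, 55 rows had 1 to 4 reads in all and 43 had 5 to 49. Only 30 rows reached the floor of 50 reads over both libraries at which a row counts as measured.

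Each ratio divides the ethanol by the control level, both as reads over the library's total, with a 95% Clopper-Pearson interval that covers counting error only. A measured row was called higher or lower if it differed at least 2-fold and its interval excluded a ratio of 1. By this rule 4 of the 30 measured noncoding rows were higher after ethanol and 0 were lower, while 1.87% of all 8668 measured rows were higher and 1.03% were lower. The 4 rows were those of the snoRNA hosts Uhg1, Uhg2 and Uhg4 and the shorter transcript of Hsromega. They had between 148 and 223 reads each. Among all rows with 50 to 199 reads 4.53% were called higher and 3.07% lower, against 2 and 0 of 15 noncoding rows. Among all rows with 200 to 999 reads 0.8% were higher and 0.193% lower, against 2 and 0 of 10 noncoding rows. Of the 30 noncoding rows, 10 had an interval above a ratio of 1 (23.1% of all rows), 3 had one below it (15.1% of all rows) and 17 intervals included 1. The median log2 ratio of the 30 was 0.093, beside 0.046 for all measured rows, so the measured noncoding rows had a median near that of the whole table. In the plot of ratio against reads, most noncoding rows lie inside the band of protein-coding rows, and the called ones lie toward its upper edge.

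**Figure D1:**
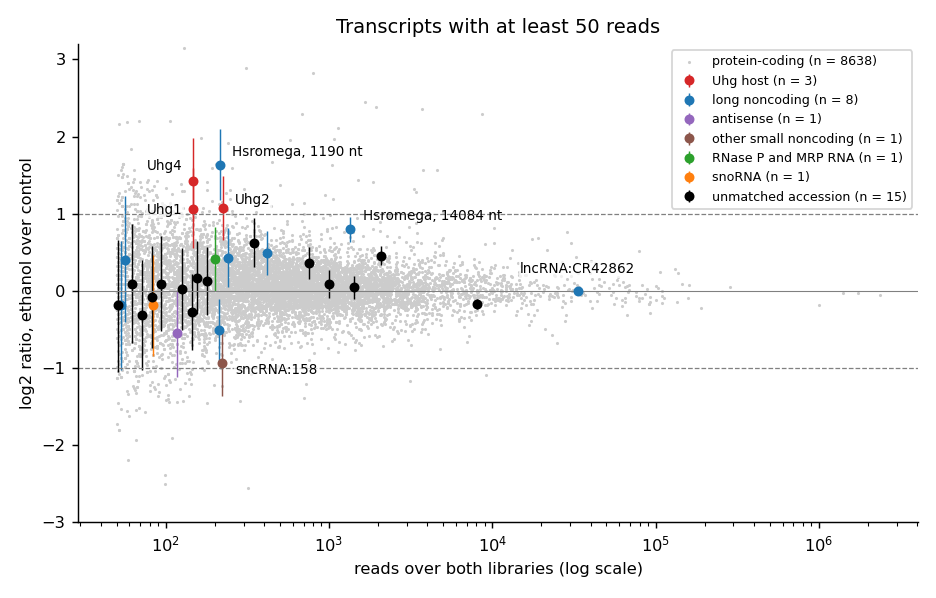
Log2 ratio of ethanol over control (vertical axis) against reads over both libraries (horizontal log axis) for every transcript with at least 50 reads. Grey points are the 8638 protein-coding rows (2 lie outside the axis), coloured and black points the 30 noncoding rows with 95% counting intervals, and dashed lines 2-fold differences. The 4 called rows sit above the upper dashed line at 148 to 223 reads, and lncRNA:CR42862 sits at 0.

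Each of the 7 Uhg genes with a read had more reads after ethanol, though the intervals of Uhg5 and Uhg7 included a ratio of 1. The share of all genes with more reads after ethanol was not computed. The sum of the 7 went from 174 to 422 reads, which is 2.59-fold (interval 2.16 to 3.10). In total 3 of the 7 were measured, and all 3 passed the rule on the higher side, beside 1.75% of all measured genes. The median log2 ratio of the 3 was 1.07.

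Uhg2, on chromosome arm 2L, was the most highly expressed of them per length. It has 5 exons and 4 snoRNAs in its introns. It had 75 reads in the control library and 148 in the ethanol library, or 16.7 and 35.1 RPKM, which divides the count by transcript length and by depth. The ethanol level was 2.10-fold that of the control (interval 1.58 to 2.82). Reads covered 259 and 261 nt of its 382 nt in the control and ethanol libraries.

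Uhg4 (arm 2R) showed the widest gap of the 3 measured hosts. It has 8 annotated exons and carries 7 snoRNAs. Its reads went from 42 to 106, or from 7.66 to 20.6 RPKM, a ratio of 2.69 (1.87 to 3.95). Its annotated exons run opposite to those of the tRNA-thiolation gene Ctu1 for 132 nt, which is 26.9% of their length, and the sources used here do not say whether the counting used strand. Ctu1 had 213 and 198 reads (log2 ratio -0.012), a level that was near the same in both libraries.

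Uhg1, also on 2R, carries the most guests of the 7, with 16 snoRNAs in the introns between 17 annotated exons. Control and ethanol reads were 50 and 98 (4.08 and 8.52 RPKM), and the ratio was 2.09 (1.47 to 3.00). The reads spanned 899 of 1043 nt in the control and 1010 nt in the ethanol library, so nearly the whole spliced RNA was represented in both. Uhg1 lay close to the 2-fold line: with median-of-ratios scaling its ratio was 1.99 and the call was lost. With a lowess trend on transcript length removed, neither Uhg1 nor Uhg2 was called.

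The other 4 Uhg genes were under the floor. Uhg8 (arm 3L, 5 exons, 3 snoRNAs) had 0 reads in the control library and 38 in the ethanol library. In the control, 0 reads leave room for up to 0.255 RPM (a count divided by depth but not by length) and the interval of the ratio had a lower limit of 10.5-fold higher after ethanol. Its 38 reads covered 267 of 496 nt. In the authors' deposited table Uhg8 has the highest log2 ratio of all transcripts, 12.76, a value set by the 0.001 RPKM that stands there in place of 0. Its exons run opposite to atk exons for 42 nt, and atk had 28 and 32 reads (log2 ratio 0.29, interval -0.49 to 1.07). The part of atk reads in the Uhg8 count was not tested.

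Uhg3 (2L, 1 snoRNA in an intron) is counted on 2 rows. The 661-nt row had 1 control and 12 ethanol reads and the 665-nt row 2 and 9. Summed, the 3 and 21 reads gave a ratio of 7.47 with a wide interval (2.23 to 39.1), and both rows lay on the same side. Uhg7 (3L, 3 snoRNAs) had 4 and 9 reads (ratio 2.40, 0.670 to 10.7). All of its exon sequence lies inside same-strand exons of the ribosomal protein gene RpL23A, which had 59808 and 50293 reads (log2 ratio -0.16), so its few reads cannot be assigned with certainty. Uhg5 (2R), with 11 snoRNAs in its introns, had 0 and 2 reads, both under the limit of 3, and no ratio is given. Among all genes with 20 to 49 reads, 12.7% were past the higher side of the same rule and 7.19% past the lower side, and Uhg3 and Uhg8, both past the higher side, fall in this range.

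**Figure D2:**
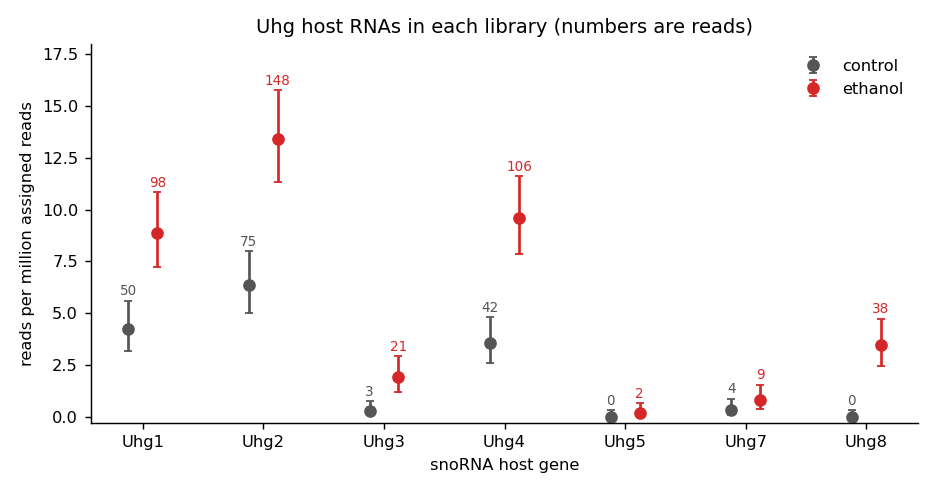
Level of each Uhg host RNA in RPM (vertical axis) in the control (grey) and ethanol (red) library, with exact 95% Poisson intervals; the numbers are reads. Levels are not per length, so each gene is to be compared between libraries only. The red point is above the grey one for all 7 genes, but the intervals of Uhg5 and Uhg7 overlap. They are separate for Uhg1, Uhg2, Uhg3, Uhg4 and Uhg8. The share of all genes with separate intervals was not computed.

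The snoRNAs inside the Uhg genes could not be followed in these libraries. The 7 genes carry 45 annotated snoRNAs in their introns, and 40 of these are shorter than 100 nt, the length of a read as shown by rows with a single read. No row of the tables with a read was shorter than 110 nt. The single Uhg guest with any read was snoRNA:Or-aca5, an orphan H/ACA snoRNA inside Uhg4, with 0 control reads and 1 ethanol read. Mature snoRNAs also lack a poly(A) tail, so the level of the guests was not measured here.

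The hosts that encode proteins had a median near that of all genes. Of 269 snoRNA genes in the Ensembl annotation, 228 lie in an intron of another gene, 186 of them in 79 protein-coding hosts. Of 71 measured protein-coding hosts, 1 was higher, 1 was lower and 69 did not pass the rule, with a median log2 ratio of 0.036, beside 0.049 for all 7822 measured genes, of which 1.75% were higher and 0.741% lower. The 27 measured hosts that encode ribosomal proteins had a median of 0.062, and the 44 other protein-coding hosts a median of 0.035. The host that passed on the higher side was RpS9, a protein of the small ribosomal subunit, with 66 and 189 reads (3.05-fold), and the one on the lower side was kis, a chromatin remodeller, with 58 and 27 reads (log2 ratio -1.01). Among other noncoding hosts, 1 of 3 was measured, lncRNA:CR42491 (log2 ratio 0.43). The plot of host genes by kind shows the 3 Uhg hosts above the bulk of both protein-coding groups. These 3 had 148 to 223 reads, whereas RpL4 had 158522, and hosts were not compared at like depth. Under the floor, the protein-coding hosts Dek (3 and 12 reads) and RpL30 (9 and 25) were past the same rule on the higher side. CG31191 (27 and 8 reads) and tou (16 and 4) were past it on the lower side. The difference between host kinds was not tested, since genes are not replicates of the treatment.

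**Figure D3:**
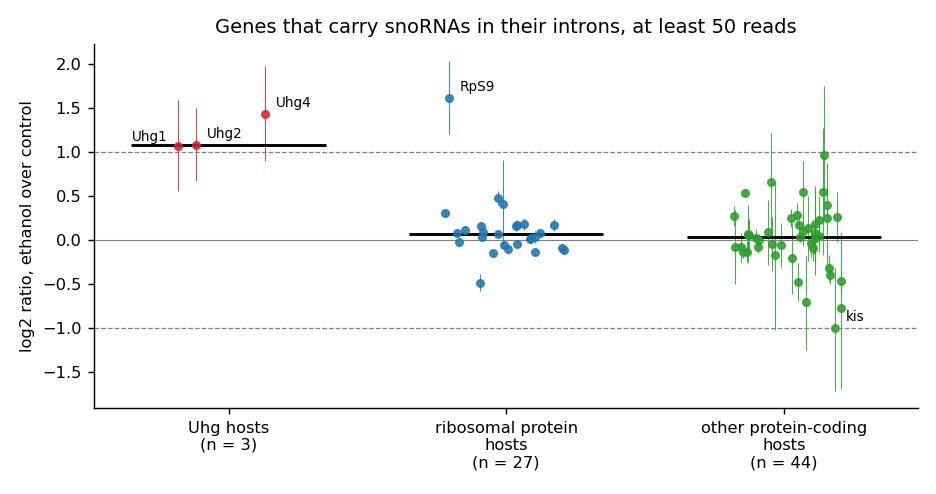
Log2 ratio of ethanol over control (vertical axis) for each gene that carries snoRNAs in its introns and has at least 50 reads, grouped by kind of host. Points are genes with 95% counting intervals, black bars are group medians (1.07, 0.062 and 0.035), and genes past the 2-fold rule are named.

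The proteins that bind snoRNAs were also looked at, as a list. Of 8 measured genes of the snoRNP proteins, 5 had an interval above a ratio of 1 and 0 had one below it. Of all 7822 measured genes, 1872 had an interval above a ratio of 1 and 1171 one below it. Of the snoRNP genes 0 passed the rule, and their median log2 ratio was 0.22. Among those with the largest ratios were Nop60B, the pseudouridine synthase of H/ACA particles, with 30 and 41 reads (0.54), and hoip, a core protein of box C/D particles, with 409 and 526 reads (0.46). The lowest were Nop10 (255 and 230 reads, log2 ratio -0.056) and Fib, the fibrillarin methylase (691 and 631, -0.038). For nonsense-mediated decay, 6 genes were measured, 0 passed, and the median was -0.041. Its kinase nonC had 802 and 631 reads (-0.25, interval -0.41 to -0.10) and its helicase Upf1 726 and 608 (-0.16, -0.32 to -0.0053), both with intervals below 0. Smg5 was at 0.57 (31 and 43 reads, -0.13 to 1.28) and Smg6 at 0.070.

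For snoRNAs with rows of their own no difference was detectable. There were 46 such rows, 41 of them named for the pseudouridine they guide, and they summed to 100 control and 89 ethanol reads, a ratio of 0.949 (0.705 to 1.28). For all 46 the interval included a ratio of 1. The best covered by far was snoRNA:Psi18S-531, which lies in an intron shared by RpL22 and lncRNA:CR42491, with 46 and 38 reads over 152 nt (25.7 and 22.7 RPKM, log2 ratio -0.18, interval -0.84 to 0.47). The other 45 had at most 6 reads each and summed to 54 and 51. Introns of ribosomal protein genes held 25 of the rows (77 and 68 reads) and introns of other protein-coding genes 16 (19 and 19 reads). Whether these reads came from the snoRNAs themselves or from unspliced RNA of their hosts was not tested.

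Hsromega, the heat-inducible noncoding RNA on arm 3R, was higher after ethanol on both of its rows, but unequally. The 14084-nt row, which matches the long unspliced nuclear RNA, had 512 control and 835 ethanol reads, or 3.09 and 5.38 RPKM. The ratio was 1.74 (1.56 to 1.95), under the 2-fold line with an interval that excluded 1. The 1190-nt row, closest to an annotated spliced RNA of 2 exons, had 55 and 159 reads, or 3.93 and 12.1 RPKM, a ratio of 3.08 (2.26 to 4.27). The intervals of the 2 rows do not overlap. Reads on the shorter row covered only 397 and 404 nt in the control and ethanol libraries, about 33.4 and 34.0% of its length. The counts are of reads assigned uniquely, and the sources used here do not say how reads in the part shared by the rows were treated. Summed over both rows, Hsromega went from 567 to 994 reads, 1.87-fold (1.69 to 2.08), which is not past the 2-fold rule.

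Of the 10 measured protein-coding heat shock genes, 6 were called higher and 0 lower, beside 1.75% and 0.741% of all measured genes, and the other 4 (Hsp83, Hsp23, stv and Hsf) did not pass. Their median log2 ratio was 1.15, and DnaJ-1 and Hsp70Bb had the largest ratios. Hsromega at a summed log2 ratio of 0.90 sat among them, above Hsp83 (0.76) and below Hsp68 (1.14). Of the hnRNP and related proteins that gather at Hsromega, 6 of 10 were measured, 0 passed, and the median was 0.37. Intervals lay above a ratio of 1 for 4 and below it for 1, beside 1872 and 1171 of all 7822 measured genes. Hrb98DE, an hnRNP A-type protein, had 24 and 44 reads (log2 ratio 0.97, 0.22 to 1.75) and the TDP-43 homologue TBPH 41 and 65 (0.76, 0.17 to 1.36). The abundant hnRNP squid, sqd, was lower, at 1736 and 1446 reads (-0.17, -0.27 to -0.069), and Saf-B, the next lowest measured member, was at 0.19. Under the floor, HnRNP-K (22 and 18 reads, -0.20) and Pep (22 and 16 reads, -0.37) had intervals that included 0, and glo (5 and 21 reads, 2.16) was past the 2-fold rule. Hrb87F, the protein best known for binding Hsromega, had 0 reads in both libraries, which says only that no read was assigned to it.

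roX1, transcribed from the X chromosome, had few reads in these female heads, and more of them after ethanol. Its 3460-nt row had 14 control and 28 ethanol reads (ratio 2.13, 1.09 to 4.38), and its 3748-nt row 8 and 34 (4.53, 2.06 to 11.3). Both rows had fewer than 50 reads and so neither is among the measured ones. The gene sum, 22 and 62 reads, did reach the floor, and its ratio was 3.01 (1.82 to 5.14), past the rule. As RPKM, which divides by the whole length of a row, the 2 rows summed to 0.525 and 1.56 in the control and ethanol libraries. Reads covered only 201 and 212 nt of the shorter row and 418 and 530 nt of the longer one. The RPKM values therefore do not say how much roX1 RNA the heads held. The annotated exons of roX1 run opposite to exons of the gene ec for 392 nt, and ec had 11 and 6 reads (log2 ratio -0.78, interval -2.50 to 0.78).

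The partner roX2 had 5 and 6 reads (ratio 1.28, 0.325 to 5.30), too few for a difference to be detectable. Because roX RNAs mark male cells, male genes were checked. The seminal and testis genes Acp26Aa, SP, Mst84Da and dj had 0 reads in both libraries, Mst87F had 2 and 4, and twe, a germline phosphatase, had 66 and 38. These are genes of the reproductive tract, and whether the share of male heads differed between the libraries was not tested. msl-2, the protein that is made in males and limits the complex, had 4 and 5 reads. Of the dosage compensation proteins, 5 of 7 were measured, 0 passed, and the median log2 ratio was 0.51. Intervals lay above a ratio of 1 for 4 and below it for 0, beside 1872 and 1171 of all 7822 measured genes. Clamp, which recognises entry sites on the X, had 36 and 58 reads (0.78, 0.16 to 1.42) and msl-3 had 48 and 73 (0.70, 0.15 to 1.25). The histone kinase gene JIL-1 (208 and 254 reads) was at 0.38 and msl-1 (479 and 466 reads) at 0.053.

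Other genes with several noncoding rows had fewer reads. lncRNA:CR42861, on the X, had 2 and 12 reads on its 477-nt row and 2 and 8 on its 549-nt row, and its sum of 4 and 20 gave a ratio of 5.33 (1.79 to 21.5). lncRNA:CR32658 differed in direction among its 3 rows (2 and 0, 4 and 2, 2 and 8 reads), all with intervals that included 1, and summed to 8 and 10. lncRNA:CR42549 had 18 and 20 reads on its main row and 27 and 21 in all. Of 7 genes with more than 1 row, the plot of ratios by transcript shows the rows of Uhg3, roX1, Hsromega and lncRNA:CR42861 on the ethanol side and those of asRNA:CR42860 on the control side.

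**Figure D4:**
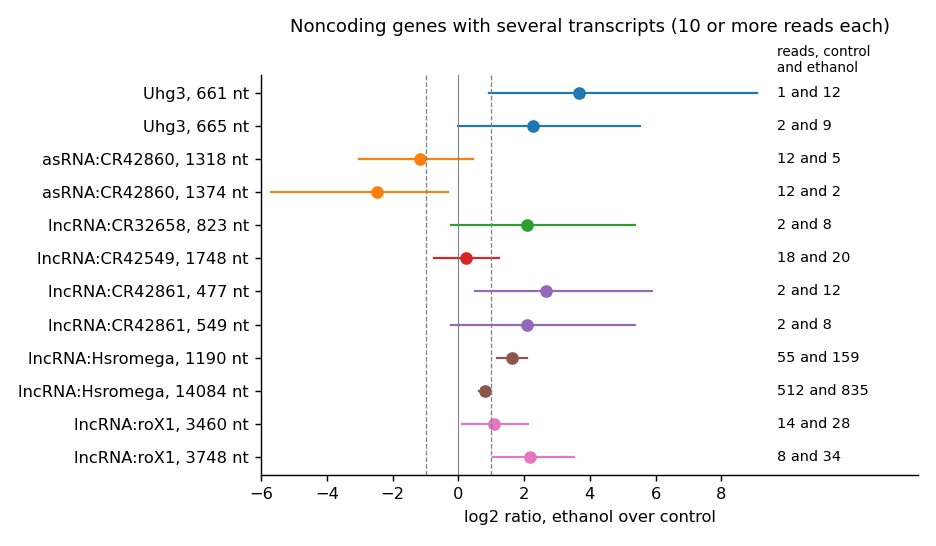
Log2 ratio of ethanol over control (horizontal axis) for each row with at least 10 reads of the noncoding genes counted on several rows, with 95% counting intervals; the reads in each library stand at the right and dashed lines are 2-fold differences. The 2 Hsromega intervals are narrow and apart, and all others are wide.

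The most abundant noncoding RNA, lncRNA:CR42862 on arm 3L, was level. It had 17302 control and 16116 ethanol reads over 5480 nt, or 268 and 267 RPKM, and ranked 327 among all rows by mean RPKM. Its log2 ratio was -0.0093 (interval -0.040 to 0.022), the narrowest interval of any noncoding row. A same-strand neighbour whose exons overlap 246 nt of it, CG33229, was at 360 and 506 reads (log2 ratio 0.58, 0.39 to 0.78). No function of lncRNA:CR42862 is stated in the annotation used here.

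The other measured long noncoding RNAs with a gene name differed by less than 2-fold. lncRNA:CR33942 (arm 2R) had 180 and 237 reads, or 30.4 and 42.6 RPKM (log2 ratio 0.49, 0.20 to 0.78). lncRNA:CR42491 (X), which hosts 1 snoRNA, had 107 and 135 reads (0.43, 0.052 to 0.81). Its exons overlap those of RpL22 on the same strand for 377 of 747 nt, and RpL22 had 28750 and 26547 reads (-0.022), and the part of RpL22 reads in the counts of this row was not tested. On the lower side, lncRNA:CR32218 (3L) had 128 and 84 reads (-0.51, -0.93 to -0.11). It lies in an intron of Mi-2, a chromatin remodeller, which had 194 and 145 reads (-0.33, -0.65 to -0.0090). lncRNA:CR33963 (29 and 24 reads, -0.18) and lncRNA:CR32385 (25 and 31 reads, 0.40) had intervals that included 0.

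The lowest measured noncoding row was sncRNA:158, a small noncoding RNA of 157 nt on arm 2L. It had 149 control and 73 ethanol reads, or 80.7 and 42.2 RPKM, a log2 ratio of -0.94 (-1.36 to -0.52), just short of 2-fold lower. All 157 nt lie inside a same-strand exon of Msp300, which encodes a giant nuclear anchor protein that is abundant in muscle, and Msp300 had 84 and 48 reads (-0.71, -1.26 to -0.19). The row and its host thus lay on the same side, with overlapping intervals. With median-of-ratios scaling, or with a trend on length or level removed, sncRNA:158 was past the 2-fold rule.

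RNAs antisense to protein-coding genes had 154 control and 107 ethanol reads over 8 rows, a summed log2 ratio of -0.43 (-0.80 to -0.067). The 1 measured row was asRNA:CR31144, with 72 and 46 reads (-0.55, -1.12 to 0.00036). It runs opposite to RpL3 exons for 412 of 559 nt, and RpL3 had 5961 and 6269 reads (0.17), so these lay on different sides. asRNA:CR42860, opposite to exons of the muscle titin gene sls for 1089 nt, had 12 and 5 reads on its 1318-nt row and 12 and 2 on its 1374-nt row, summed to 24 and 7 (log2 ratio -1.68, -3.14 to -0.43). sls had 530 and 367 reads (-0.44, -0.63 to -0.24). Without knowledge of strand in the counting, reads from an antisense RNA and its partner cannot be told apart.

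**Figure D5:**
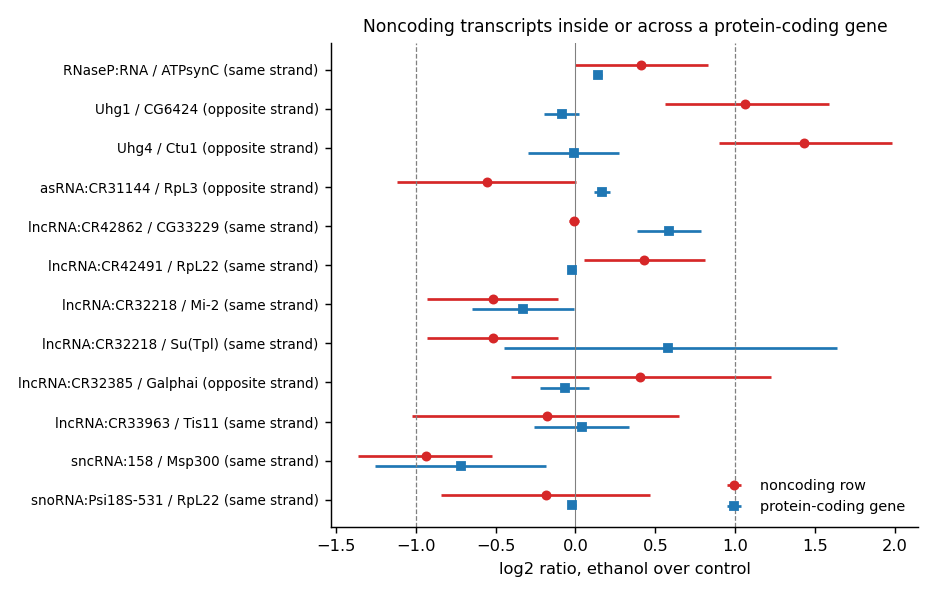
Log2 ratio of ethanol over control (horizontal axis) for measured noncoding rows that overlap or lie inside a protein-coding gene (red circles) beside that gene, with reads summed over its rows (blue squares), and 95% counting intervals. The red and blue intervals are apart for Uhg1, Uhg4, lncRNA:CR42862, lncRNA:CR42491 and asRNA:CR31144, and they overlap for sncRNA:158 and Msp300.

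Processing RNAs and spliceosomal RNAs, which have no poly(A) tail when mature, left few reads. RNaseP:RNA, the catalytic RNA that trims precursor tRNAs, had 89 and 111 reads over 299 nt (25.3 and 33.7 RPKM), a log2 ratio of 0.41 whose interval, -0.0036 to 0.83, just included 0. It lies in an intron of ATPsynC, which had 28633 and 29606 reads (0.14). RNaseMRP:RNA, which cuts precursor ribosomal RNA, had 13 and 9 reads (-0.44, -1.84 to 0.90). Of the proteins of these enzymes 3 were measured, 0 passed, and the median was 0.31. snRNA:U2:34ABa and snRNA:U11 had 2 reads in each library and snRNA:U12 had 3 and 2. snRNA:7SKa had 0 and 2 reads, on a 110-nt row that is shorter than the 444 nt annotated now. In the list of 7SK-particle proteins, 1 of 5 passed, beside 1.75% of all measured genes and 4.53% of rows with 50 to 199 reads, and the median was 0.62. This was Hexim, the inhibitor of the elongation kinase, with 24 and 61 reads (log2 ratio 1.44, 0.74 to 2.18). bin3, the capping methylase, was at 0.68 (48 and 72 reads), and CycT (-0.18) and Cdk9 (-0.085) were the lowest.

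Accessions without a gene in the annotation made up 15 of the 30 measured rows. None of these 15 passed the rule, and their median log2 ratio was 0.087, against 0.41 for the 15 named rows. NR_002021, the second most abundant noncoding row, had 4383 and 3656 reads over 2765 nt (135 and 120 RPKM, log2 ratio -0.17, -0.23 to -0.10). NR_001953 had 910 and 1170 reads (0.46, 0.33 to 0.58), NR_002490 had 345 and 414 (0.36, 0.15 to 0.57) and NR_002483 had 143 and 206 (0.62, 0.31 to 0.94). These 3 were higher with intervals that excluded 0, and NR_002021 was lower. NR_002468 had 76 and 80 reads (0.17), NR_037741 had 81 and 63 (-0.27) and NR_001661 had 41 and 31 (-0.31), all with intervals that included 0.

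Coverage by reads marked some of these rows as partly represented. NR_037730 had 726 and 702 reads (log2 ratio 0.045) that covered 503 and 616 of its 2514 nt, and NR_037731 had 499 and 497 reads (0.087) that covered 461 and 494 of its 2566 nt. Of the 30 measured noncoding rows, 9 had less than 50% of their length covered in both libraries, and 7 of those 9 were rows without a gene. Protein-coding rows of at least 50 reads had a median coverage of 89.5% (control) and 90.2% (ethanol), and the noncoding ones 77.8 and 86.2%. The order changed with read depth. At 50 to 199 reads the noncoding medians were higher, 57.0 and 64.5% against 27.4 and 27.7% for protein-coding rows. At 200 to 999 reads they were lower, 77.8 and 90.8% against 92.4 and 93.05%. At 1000 reads or more they were 93.85 and 98.3% against 97.7 and 97.9%.

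Members just inside and just outside the floor of 50 reads differed in no single direction. Just inside were NR_002478 (28 and 23 reads), lncRNA:CR33963 (29 and 24), lncRNA:CR32385 (25 and 31) and NR_002458 (31 and 31). Just outside were the 2 roX1 rows, NR_037734 (23 and 18), lncRNA:CR42549 (18 and 20) and Uhg8. Of the 98 rows under the floor, 8 were past the same 2-fold rule on the higher side and 2 on the lower side. The 8 included Uhg8, 1 Uhg3 row, both roX1 rows, 1 lncRNA:CR42861 row and 3 accessions without a gene (NR_037720 with 7 and 22 reads, NR_037721 with 1 and 9, and NR_037766 with 0 and 8). The 2 were NR_037750 (22 and 9 reads) and 1 row of asRNA:CR42860. Of the 15 noncoding rows with 20 to 49 reads, 4 were past the rule on the higher side and 1 on the lower side, beside 10.6% and 7.58% of all rows in that range. The Uhg3, lncRNA:CR42861 and asRNA:CR42860 rows past the rule, NR_037721 and NR_037766 had fewer than 20 reads. For that range no share of all rows was computed, so nothing is drawn from them.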

How the data were processed

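Head poly(A) RNA of 1 control and 1 ethanol pool was sequenced from TruSeq libraries, per the labels' protocols. For each library and RefSeq accession, the authors deposited a count of reads assigned uniquely, coverage as a percent of the transcript's length, and RPKM, per the file headers. Their table for the whole series repeats the counts, sets RPKM of 0 to 0.001, and adds a log2 ratio, quoted for 1 transcript, and p-values, which are not used here, per the file headers. Counts in both kinds of file were equal for all 15090 accessions. The submitters' processing notes name BDGP 5 as the build. No source used here names the aligner or counter, the use of strand, or the handling of reads shared by transcripts.

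Accessions were named with the RefSeq Release 6 gene table, and gene structures and overlaps were taken from Ensembl 115. No coordinate was carried between builds. Ratios used counts scaled by library totals, with Clopper-Pearson intervals (SciPy 1.17.1). Intervals and the limit of 3 reads for a count of 0 (0.255 RPM in the control, 0.272 in the ethanol library) cover counting error only. The functions were tested on simulated data. Alternative scalings used edgeR 4.0.16 (TMM) and DESeq2 1.42.0 (median of ratios). Other alternatives were read floors, pseudocounts, fold thresholds, a wider interval, removed trends on length or level, and sums per gene.

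The members and gene lists were chosen with earlier results of these data known. Named were all called rows, the 15 rows with the highest mean RPKM, every Uhg, Hsromega, roX, 7SK, RNase P, MRP and spliceosomal RNA with a read, the 2 extreme measured rows per class, and up to 2 extreme members on each side of the protein lists described. Other rows under the floor were named after their values were seen. No sequences were used here.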

Additional observations from a re-analysis of the deposited data

How the results depend on the processing

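The log2 ratios of Hsromega and roX1 kept their direction under the alternatives tried. So did the medians of all noncoding rows (0.023 to 0.41) and of the Uhg hosts (0.93 to 1.43). The counts of called rows have no direction, and several alternatives moved them. The count of higher rows, 4, became 12 with no floor, 8 with a floor of 20 reads, 2 with a floor of 200 reads and 0 with a 4-fold threshold. Chosen after seeing the data, leaving out rows whose exons overlap a protein-coding exon gave 2, and leaving out the Uhg hosts gave 1. The count of lower rows, 0, became 2 with no floor, 1 with a floor of 20 reads, and 1 (sncRNA:158 each time) with median-of-ratios scaling, with a trend on length or on level removed, and with a 1.5-fold threshold. With reads summed per gene, 4 genes were higher, of which 3 (Uhg1, Uhg2 and Uhg4) were shared with the rows, and roX1 took the place of Hsromega. The Hsromega log2 ratio of 0.90 became 0.74 with a pseudocount of 1 RPKM, 1.43 with the length trend removed and 1.62 on its 1190-nt row alone, and that of roX1, 1.59, became 0.74 with the pseudocount. Adding a pseudocount to both levels by itself draws a ratio toward 1. For the pseudocount and the length trend, each gene sum was given the length of its longest row. What underlies the length trend was not tested. Uhg1 also lost its call with a pseudocount of 1 RPKM, with the level trend removed and, at 1.99-fold, with median-of-ratios scaling. Other scalings moved the median log2 ratio of all rows from 0.046 to 0.021 without the 10 most abundant genes, -0.0036 with TMM and -0.024 with median-of-ratios scaling, so it changed sign with the last 2, as do positive log2 ratios smaller than the shifts of -0.049 and -0.070 that these apply to every row. No paired analysis was possible because each group has 1 library, and for the same reason no library could be left out. Depth limits 98 of the 128 rows to fewer than 50 reads.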

Other observations

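The lists of proteins that work with noncoding RNAs not described above gave 1 called gene, RpS9. For the signal recognition particle 9 genes were measured (median log2 ratio 0.10, 4 intervals above a ratio of 1 and 1 below), and for the spliceosomal particles 8 (0.026, 2 above and 1 below). Of all 7822 measured genes, 1872 had an interval above a ratio of 1 and 1171 one below it. In the microRNA pathway 6 genes were measured (median -0.0086), and the interval lay below a ratio of 1 for the slicer-family gene AGO1 (251 and 156 reads, log2 ratio -0.59, -0.89 to -0.30) and for Dcr-1, which cuts precursor hairpins (313 and 210 reads, -0.48, -0.74 to -0.23). Of 77 measured ribosomal protein genes, 1 was higher, RpS9, and 0 were lower, beside 1.75% and 0.741% of all measured genes. The median of the 77 was 0.031.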
